A study of Mus musculus with 4 samples.

Results

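Binding of Myc and Max in mouse embryonic stem cells (ESCs) was described at 10 genes of the circadian clock: Clock, Arntl, Per1, Per2, Per3, Cry1, Cry2, Nr1d1, Dbp and Bhlhe40. The genes were listed by name, as parts of the clock or as known E-Box targets of its activator, and all 10 were found among the 22380 protein-coding genes of the 37310 annotated genes. The series holds 4 ChIP-Seq libraries, 1 per ChIP, all from cells of the E14 line of mouse ESCs. Bio-Myc, which is Myc carrying a tag that the BirA ligase biotinylates, was pulled down on streptavidin Dynabeads from 1 stable clone, in which the ubiquitous EF1α promoter drives the tagged gene and the endogenous Myc gene is still present. Max was pulled down with an antibody (sc197) from parental wild type cells. The mock ChIP used the same streptavidin beads on cells without tagged Myc, which the labels call parental wild type and the methods call BirA-ES cells, and the IgG ChIP used sc2027 on parental wild type cells. The 2 controls enter here only through the peak calling, and no condition, time of day or hormone treatment was varied. Peak lists hold no expression, so the identity of the cells could not be checked against marker genes.

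The clock of mammalian cells is a transcriptional feedback loop. Clock and Arntl (also named Bmal1) are bHLH-PAS proteins that pair and activate genes through E-Boxes, with CACGTG as the best-known form. Their targets include the Per and Cry genes, whose products repress the pair, and Nr1d1 and Dbp. Myc and Max are bHLH-zipper proteins that also bind CACGTG as a dimer, so the E-Boxes of clock promoters are sites that both families can recognise.

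The Bio-Myc list held 3962 peaks and the Max list 11570. Each peak has a score, which is the MACS p-value turned into -log10 and multiplied by 10, so that a higher score is a stronger call. Scores depend on the depth of each library, which the lists do not give, and were therefore read only within a list, as the percentage of its peaks with a lower score. The median score was 129 in the Bio-Myc list and 160 in the Max list. With 1 library per ChIP, no value below has a spread between replicates and no difference between the lists was tested.

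A peak was counted for a gene when it reached the region within 1 kb of any annotated transcription start site (TSS), called the promoter here. Max had a promoter peak at 8 of the 10 clock genes, all but Arntl and Bhlhe40, against 34.8% of all protein-coding genes. Bio-Myc had one at 4 genes, Cry1, Nr1d1, Dbp and Bhlhe40, against 14.6%. Cry1, Nr1d1 and Dbp carried both, against 12.7% of protein-coding genes. Bhlhe40 had Bio-Myc without Max, a combination seen at 1.98% of protein-coding genes. Arntl had neither, for which no share over all protein-coding genes is given. The same genes had a peak when the region was widened to 5 kb, for which the shares of all protein-coding genes were 16.6% for Bio-Myc and 38.6% for Max. In all, the clock promoters held 6 Bio-Myc and 13 Max peaks, and none of these 19 peaks covered a TSS of another gene. The Bio-Myc peak over the outermost TSS of Dbp and that of Bhlhe40 each had their centre inside another annotated gene.

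Most of the clock promoters had a higher CpG content than the median protein-coding gene. In the 1000 bp around the outermost TSS, the ratio of observed to expected CpG ran from 0.44 at Nr1d1 to 1.02 at Cry1, and all but Nr1d1 were above the median of all protein-coding genes, 0.549. Among the 12846 protein-coding genes with a ratio of at least 0.44, Bio-Myc had a promoter peak at 23.6% and Max at 54.6%. This limit is set by Nr1d1 alone and lies below the median, while the next lowest clock gene, Bhlhe40, was at 0.58. The set is therefore not matched to the clock genes in CpG content. The 95% Wilson intervals of the shares among the clock genes, 16.8 to 68.7% for Bio-Myc and 49 to 94.3% for Max, are wide because there are only 10 genes, and they cover counting error only. The clock genes also had more annotated TSSs, with a median of 3 against 2 for all protein-coding genes. What part CpG content and TSS number have in the shares was not tested.

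**Figure D1:**
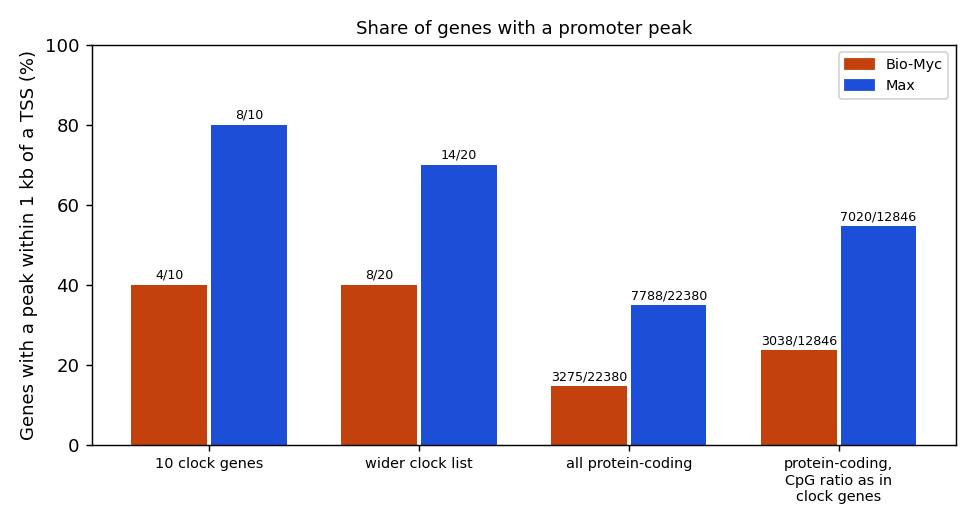
Percentage of genes with a Bio-Myc (orange) or Max (blue) peak within 1 kb of a TSS, for the 10 clock genes, a wider list of 20 clock genes, all protein-coding genes, and protein-coding genes with a CpG ratio of at least 0.44. The numbers over the bars are genes with a peak over genes in the group. Both clock lists stand at 40% for Bio-Myc, against 14.6% of all protein-coding genes and 23.6% of those with a ratio of at least 0.44. That limit is the lowest value among the 10 clock genes, so the last group is not matched to them in CpG content.

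The palindrome CACGTG, counted once per site since it reads the same on both strands, was found within 1 kb of a TSS at 6 clock genes and was not found there at the other 4, Clock, Arntl, Per2 and Cry2. It was found there at 39.1% of protein-coding genes. Some clock genes were listed as known E-Box targets, so their count is not independent of the listing. The 6 genes held 11 such E-Boxes, 5 at Per1, 2 at Dbp and 1 each at Per3, Cry1, Nr1d1 and Bhlhe40. Of the 11, 8 lay under a Max peak and 5 under a Bio-Myc peak, 4 of them under both. Among the 12717 E-Boxes in the promoters of all protein-coding genes, 26.3% lay under a Max peak and 14.6% under a Bio-Myc peak. E-Boxes of 1 promoter can share a peak, so the 11 sites are not independent of each other. Within 5 kb of a TSS the clock genes held 33 E-Boxes, and 19 of these lay under no peak of either list, 7 of them at Per3. No share over all protein-coding genes is given for E-Boxes in this wider window, so these counts are a description only.

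The listing of known E-Box targets also bears on the counts of CACGTG under peaks. Each of the 4 clock genes with a Bio-Myc promoter peak had CACGTG under such a peak, against 49.7% of protein-coding genes with a Bio-Myc promoter peak. Of the 8 with a Max promoter peak, Per1, Cry1, Nr1d1 and Dbp had CACGTG under it, against 38.6%. Among these 4 genes, 3 also had a Bio-Myc promoter peak and Per1 had none. At Clock, Per2, Per3 and Cry2, where the Max peak held no CACGTG, Bio-Myc had no promoter peak. Over all protein-coding genes, Bio-Myc was present at 49.8% of those with CACGTG under a Max promoter peak, at 27.9% of those with a Max promoter peak that lacked it, and at 36.4% of all those with a Max promoter peak.

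**Figure D2:**
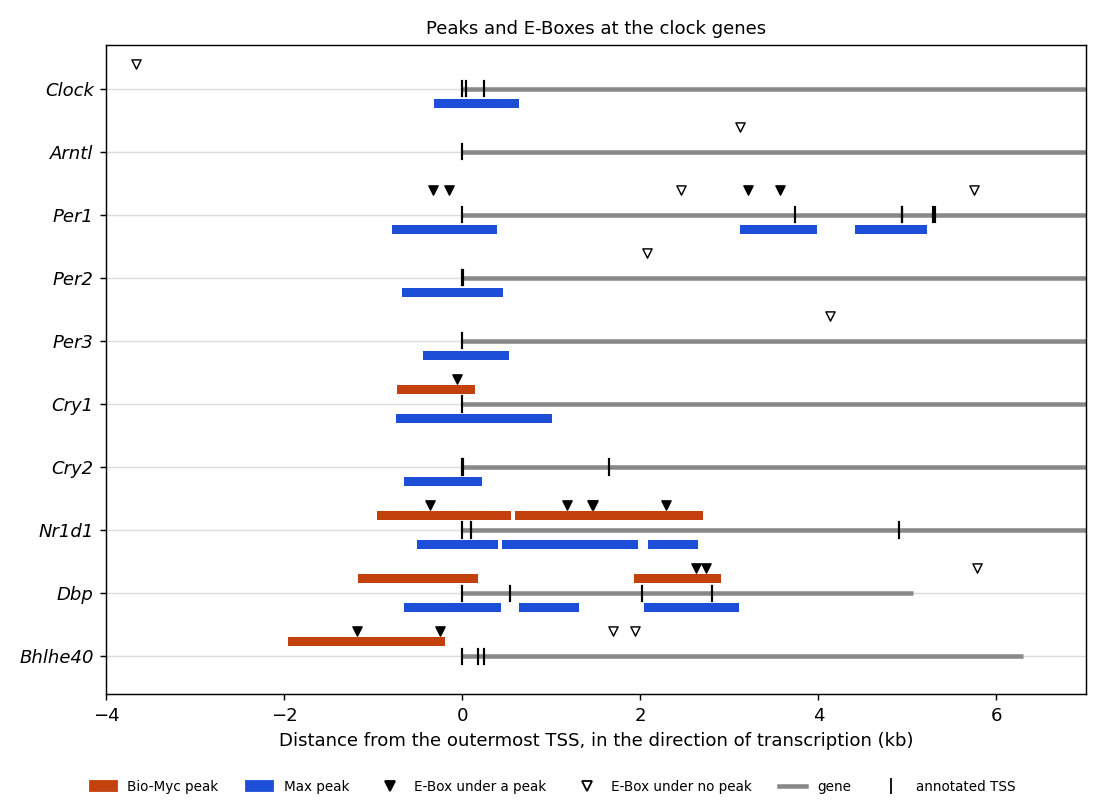
Bio-Myc peaks (orange, above each line) and Max peaks (blue, below) around the outermost TSS of the 10 clock genes, in kb along the direction of transcription, with genes as thick grey lines, annotated TSSs as black ticks, and E-Boxes as filled triangles (under a peak) or open triangles (under no peak). Orange bars stand at Cry1, Nr1d1, Dbp and Bhlhe40, blue bars at the 8 genes other than Arntl and Bhlhe40, and the line of Arntl carries no bar.

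Of the 2 activators of the loop, Clock had a Max peak alone and Arntl had no peak. Clock (ENSMUSG00000029238.7, mm9 chr5:76639992-76733817, minus strand), which encodes the histone acetyltransferase partner of the pair, had 1 Max peak, at chr5:76733185-76734137, over its 3 annotated TSSs. The score of this peak was 161.74, above 50.6% of the Max list. It held no CACGTG and 1 CACGCG, and the nearest Bio-Myc peak was 163.6 kb away. Arntl (ENSMUSG00000055116.6, chr7:120350979-120457636, plus strand), its partner, had no peak of either list near its single TSS. The nearest Bio-Myc and Max peaks lay 161.5 and 161.6 kb downstream, beyond the end of the gene, against a median over protein-coding genes of 113 kb for Bio-Myc and 22.1 kb for Max. The promoter of Arntl is a CpG-rich one, with 68.3% GC and a CpG ratio of 0.87, and its only CACGTG within 5 kb of the TSS lay under no peak.

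The Period genes encode the PAS-domain proteins that carry the Cry repressors to Clock and Arntl. All 3 had Max over the outermost TSS, and none had Bio-Myc within 5 kb. Max was strongest at Per1 (ENSMUSG00000020893.11, chr11:68908719-68923462, plus strand), with a score of 760.24 at chr11:68907929-68909108, rank 362 and above 96.9% of the list. Per1 has 6 annotated TSSs, and 2 further Max peaks lay over TSSs inside the gene, at chr11:68911841-68912706 with a score of 250.65 and at chr11:68913134-68913936 with 115.66. These stood above 72.2% and 29.0% of the list, so the order of the 3 peaks followed their place along the gene. Bio-Myc came no closer to a Per1 TSS than 23.9 kb.

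The E-Boxes of Per1 are shown because 4 of the 5 in its promoters lay under Max without Bio-Myc. The fifth, at 441 of an inner TSS, lay under no peak. Sequences here and below are mm9, 5′ to 3′ in the direction of the gene, with the motif in capitals, and the name gives the position of the first base of the motif from the nearest TSS, where negative is upstream.
Per1 E-Box at -334, chr11:68908373-68908402: tgagccagcctgCACGTGttccctacagct
Per1 E-Box at -150, chr11:68908557-68908586: cgcccccgccctCACGTGgctctatcacta
Per1 E-Box at -528 of an inner TSS, chr11:68911910-68911939: accccttaacgaCACGTGggccctcaattg
Per1 E-Box at -165 of an inner TSS, chr11:68912273-68912302: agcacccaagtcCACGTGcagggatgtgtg
Per1 E-Box at 441, under no peak, chr11:68914453-68914482: gatgctgctgacCACGTGgccctccctcac
The first pair lay upstream of the gene and under its strongest Max peak, the second pair was intronic and under the next peak, and the weakest Max peak held none. Holding at least 2 CACGTG was a feature of 8.5% of the 7569 Max peaks at protein-coding promoters, a share not matched for peak width.

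Per1 had the highest-scoring Max peak among the clock genes without Bio-Myc. Of the 281 Max promoter peaks of protein-coding genes with a score of 760.24 or more, 198 overlapped a Bio-Myc peak by at least 1 bp, which is 70.5%. The remaining peaks of that strength, Per1 among them, did not. Over all 7569 Max promoter peaks the share was 32.5%. Per2, Cry2, Per3 and Clock were the other clock genes with Max alone. Among Max promoter peaks with at least their scores, the shares were 61.5%, 58.2%, 49.4% and 44.9%, in that order. Each share includes all stronger peaks, so it is not the share at that score alone. A peak without Bio-Myc was common in each of these sets. The peaks without Bio-Myc missed a MACS limit in the Bio-Myc library, which does not show that Myc was absent.

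Per2 (ENSMUSG00000055866.7, chr1:93312561-93355907, minus strand) had its Max peak at chr1:93355455-93356590, with a score of 407.92, above 87.9% of the list. Per3 (ENSMUSG00000028957.6, chr4:150377761-150418774, minus strand) had a weaker one at chr4:150418247-150419222, with 202.79, above 62.4%. Neither peak held CACGTG. The one-base variant CACGTT, searched on both strands, was present under the Per2 peak at 9 bp from the nearest TSS, in the 5′ UTR, and Per3 had a CACGCG at -15. The single promoter E-Box of Per3 lay at 707 from an inner TSS, in an exon of a noncoding transcript and under no peak. These sites are shown because they contrast a variant under a peak with a canonical E-Box under none.
Per2 variant at 9, chr1:93355879-93355908: agcgcgcgcggtCACGTTttccactatgtg
Per3 variant at -15, chr4:150418772-150418801: gcggccactgggCACGCGgacggcctcgag
Per3 E-Box at 707 of an inner TSS, under no peak, chr4:150404882-150404911: gttgtgagctacCACGTGggttctggaaat
The 2 promoter E-Boxes under no peak, at Per1 and Per3, both had C before and G after the core. Over all coding promoters, E-Boxes with this base on both sides lay under Max in 29.7% of 1297 sites and under Bio-Myc in 18%, against 29.9% and 16.9% of the 5139 sites with it on 1 side and 22.7% and 12% of the 6281 sites with it on neither side.

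Max peaks without CACGTG were the majority at coding promoters, 4797 of 7569 or 63.4%. Of these, 21.1% held CACGTT, 49.1% CACGCG and 24.6% CATGTG, each on either strand, and 69.9% held at least 1 of the 3. At least 1 was present under all 4 such peaks at Clock, Per2, Per3 and Cry2. Within 1 kb of a TSS, CACGTT was found at 40.7%, CACGCG at 38.5% and CATGTG at 76.7% of protein-coding genes, so a match to any of them is a common feature and is given as a description of the sequence.

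The cryptochromes are the main repressors of Clock and Arntl, and their promoters differed. Cry1 (ENSMUSG00000020038.9, chr10:84594447-84647799, minus strand) had a strong Max peak over its TSS, at chr10:84646790-84648547, with a score of 821.31, rank 293 and above 97.5% of the list. A Bio-Myc peak at chr10:84647659-84648538 lay wholly inside it, over 880 bp. Its score of 123.73 was above 46.4% of the Bio-Myc list, below the median, so Cry1 was placed high in the Max list and just under the middle of the Bio-Myc list. Cry2 (ENSMUSG00000068742.5, chr2:92243803-92274200, minus strand) had a Max peak alone, at chr2:92273985-92274860, with a score of 309.53, above 80% of the list. It held no CACGTG, and the nearest Bio-Myc peak was 376.0 kb away, the longest such distance among the 10 genes.

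The 120 bases upstream of the Cry1 TSS are shown because both peaks cover them and they carry the only CACGTG of the gene within 5 kb. The sequence of Cry2 is the variant under its Max peak. On the strand of both genes the variant reads AACGTG, which is CACGTT on the other strand.
Cry1, -120 to -1, chr10:84647800-84647919: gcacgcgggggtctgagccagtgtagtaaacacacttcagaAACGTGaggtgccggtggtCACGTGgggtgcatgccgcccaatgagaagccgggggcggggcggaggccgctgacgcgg
Cry2 variant at -192, chr2:92274375-92274404: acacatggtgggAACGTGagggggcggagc
At Cry1, CACGTG began at -60 and the variant lay upstream of it with a spacer of 13 bases.

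Nr1d1 (ENSMUSG00000020889.10, chr11:98629246-98636647, minus strand) encodes Rev-erbα, the nuclear receptor that represses Arntl and so forms the second loop of the clock. It carried the strongest peaks of the 10 genes in both lists, and the largest number of E-Boxes under them. At its TSSs, a Bio-Myc peak at chr11:98636100-98637606 had a score of 187.54, above 72.6% of that list, and a Max peak at chr11:98636244-98637159 had 825.1, above 97.5%. The stronger peaks lay inside the gene, in an intron. Here Bio-Myc at chr11:98633949-98636054 had a score of 357.49, rank 313 and above 92.1%, and Max at chr11:98634679-98636199 had 1213.37, rank 92 and above 99.2%. Both reach into the promoter region, with edges 499 and 354 bp from the nearest TSS. A weaker Max peak of 87.22, 1987 bp from the nearest TSS, also lay under the intronic Bio-Myc peak.

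Both of these regions held CACGTG. The upstream Bio-Myc and Max peaks held 1, the intronic Bio-Myc peak held 4, and the 2 Max peaks beneath it held 3 and 1. At least 4 CACGTG were present under 0.828% of the 2900 Bio-Myc peaks at coding promoters, and at least 3 under 1.8% of the Max peaks there. These limits are the counts seen at Nr1d1, and the shares were not matched for peak width. The intronic Bio-Myc peak was 2106 bp wide and the stronger Max peak beneath it 1521 bp. The sequences are shown because CACGTG stands close to the variant CACGTT upstream and close to another CACGTG in the intron.
Nr1d1 upstream, -397 to -332, chr11:98636979-98637044: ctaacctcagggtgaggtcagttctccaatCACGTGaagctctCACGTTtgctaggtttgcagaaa
Nr1d1 intron E-Box at 1080, chr11:98635456-98635485: cagagccgggccCACGTGctgcatttgttt
Nr1d1 intron, 1340 to 1400, chr11:98635153-98635213: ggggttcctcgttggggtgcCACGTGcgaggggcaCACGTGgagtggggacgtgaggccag
Nr1d1 intron E-Box at 2196, chr11:98634340-98634369: tgtcacctcacaCACGTGtctgaggatcct
In the upstream stretch CACGTG was followed by CACGTT after 7 bases, and in the intron a pair of CACGTG stood 9 bases apart. A pair drawn from CACGTG and CACGTT with 6 or 7 bases between was found in the promoters of 37 protein-coding genes, 0.165% of them. A pair of CACGTG with at most 9 bases between was found under 20 of the 2900 Bio-Myc promoter peaks, 0.69%. Both arrangements were looked for after they were seen at Nr1d1.

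Dbp (ENSMUSG00000059824.4, chr7:52960458-52965525, plus strand), a PAR bZIP factor that passes the rhythm to output genes, had binding in 2 separate places. Over its outermost TSS, Bio-Myc at chr7:52959290-52960634 had a score of 179.49, above 70.6% of its list, and Max at chr7:52959800-52960893 had 512.9, above 92.1%. Neither of these peaks held CACGTG, and each held 3 CACGCG. Inside the gene, Bio-Myc at chr7:52962391-52963367 had 108.53, above 34.9%, and Max at chr7:52962498-52963564 had 325.4, above 81.8%. Both of the inner peaks held the same 2 CACGTG, so at Dbp the stronger peak of each list was the one without E-Boxes. A Max peak between them, at chr7:52961092-52961765, with 103.08, overlapped no Bio-Myc peak and held no CACGTG.

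The inner E-Boxes of Dbp lie in an exon of transcripts annotated as noncoding, between the 2 innermost of its 4 annotated TSSs and within 1 kb of both. The stretch is shown because it carries both of them, with the variant AACGTG between.
Dbp, -189 to -47 of the inner TSS, chr7:52963070-52963212: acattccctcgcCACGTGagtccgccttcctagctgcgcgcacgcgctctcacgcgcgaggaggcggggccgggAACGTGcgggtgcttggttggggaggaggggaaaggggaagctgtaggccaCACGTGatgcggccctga
The 2 CACGTG are 107 bases apart.

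**Figure D3:**
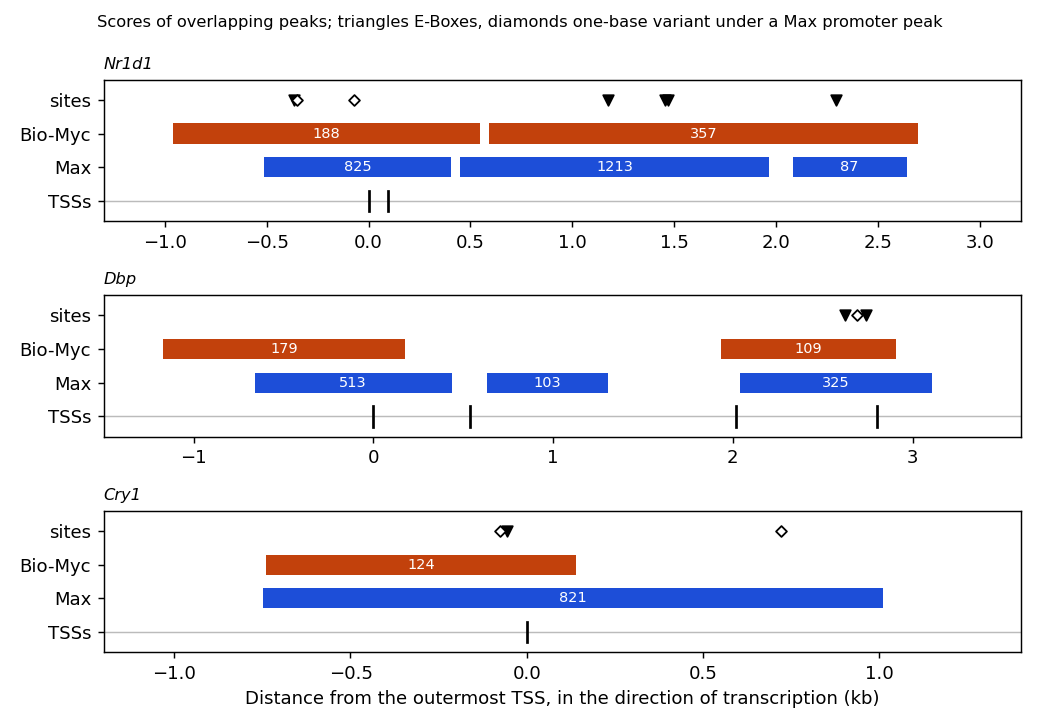
Peaks of both lists at Nr1d1, Dbp and Cry1, in kb from the outermost TSS along the direction of transcription, with the score printed in each bar; triangles mark E-Boxes, diamonds the one-base variant of the E-Box under a Max promoter peak, and black ticks TSSs. Within the range drawn, the E-Boxes of Nr1d1 and Cry1 fall under bars of both colours, while those of Dbp fall under the inner pair of bars and none under the outer pair.

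Bhlhe40 (ENSMUSG00000030103.5, chr6:108610623-108616919, plus strand), also named Dec1, encodes a bHLH repressor that binds E-Boxes itself. It had Bio-Myc without Max. The Bio-Myc peak at chr6:108608663-108610423 ended 200 bp upstream of the outermost TSS and had a score of 88.72, above 13% of the list, the lowest of the 6 Bio-Myc promoter peaks at clock genes. The nearest Max peak lay 6.6 kb downstream of the nearest TSS, beyond the end of the gene, with a score of 245.92. The Bio-Myc peak held 2 CACGTG, which are shown because they are the only E-Boxes of these genes under Bio-Myc alone.
Bhlhe40 E-Box at -1186, chr6:108609425-108609454: ccgcgtccgggcCACGTGaagcgtcacgcc
Bhlhe40 E-Box at -257, chr6:108610354-108610383: agcgttgtccaaCACGTGaggctcatgtga
The site at -1186 stood 104 bp from the centre of the peak and the site at -257 stood 825 bp from it. A further 2 E-Boxes of Bhlhe40 within 5 kb lay under no peak.

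The genes can be put in order within each list. The percentages are not comparable between the lists, since the Max list is the longer one and its additional weak peaks raise the place of every stronger peak. The strongest Max promoter peak stood above 50.6% of the list at Clock, 62.4% at Per3, 80% at Cry2, 87.9% at Per2, 92.1% at Dbp, 96.9% at Per1, 97.5% at Cry1 and 99.2% at Nr1d1. The strongest Bio-Myc promoter peak stood above 13% at Bhlhe40, 46.4% at Cry1, 70.6% at Dbp and 92.1% at Nr1d1. For the 3 genes with both, Cry1 was ahead of Dbp in the Max list and behind it in the Bio-Myc list. Without replicates it cannot be said which neighbours in these orders differ beyond error.

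**Figure D4:**
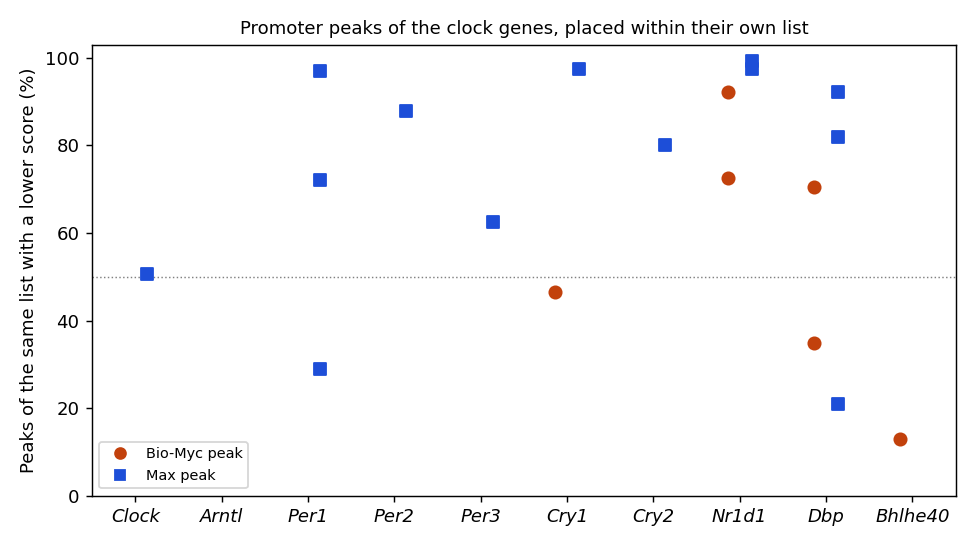
Place of each promoter peak of the 10 clock genes within its own list, as the percentage of peaks of that list with a lower score, for Bio-Myc (orange circles) and Max (blue squares); the dotted line is the middle of each list, and heights are not comparable between the colours. The highest Max squares of Nr1d1, Cry1 and Per1 stand above 96%, the other 2 squares of Per1 at 72.2% and 29.0%, the Bio-Myc circles run from 13% at Bhlhe40 to 92.1% at Nr1d1, and Arntl has no point.

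A wider list of 20 clock genes, with further receptors, bZIP factors, kinases and ubiquitin-pathway genes of the clock, was counted in the same way. Bio-Myc had a promoter peak at 8 of the 20, or 40%, against 14.6% of all protein-coding genes. Max had one at 14, or 70%, against 34.8%. The 8 with Bio-Myc all had Max, as did 2832 of the 3275 protein-coding genes with Bio-Myc. CACGTG lay under the Bio-Myc promoter peak of 4 of the 8, Nr1d2, Tef, Gm129 and Usp2, and under the Max promoter peak of 7 of the 14, against 49.7% and 38.6% of all protein-coding genes with such a peak. Gm129 (also named Ciart), which encodes a repressor of Clock and Arntl, had a Max peak with a score of 2136.89, rank 21 and above 99.8% of the list, and a Bio-Myc peak of 275.56, above 87.1%, each with 4 CACGTG. Tef, a PAR bZIP gene like Dbp, had a Max peak of 1275.91, rank 84, with 3 CACGTG. The Bio-Myc peak overlapping it had a score of 110.2, and a second Bio-Myc peak of 160.6 lay over TSSs of Tef and over a TSS of another gene. Nr1d2, the paralog of Nr1d1, had a Max peak of 941.58, rank 195, and a Bio-Myc peak of 111.58, each with 3 CACGTG. Usp2, a deubiquitinase, had weaker peaks, at 235.76 for the stronger Max peak and 90.8 for Bio-Myc, each with 1.

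Csnk1d, a casein kinase that phosphorylates Per proteins, Gsk3b, a kinase, and Timeless had Bio-Myc promoter peaks without CACGTG. Their Bio-Myc scores were 164.09, 114.88 and 100.17, in that order. Their strongest Max promoter peaks scored 320.53, 120.17 and 96.13, all below those of Gm129, Tef and Nr1d2. The Max peak of Csnk1d was above the 235.76 of Usp2, and those of Gsk3b and Timeless were below it. In the Bio-Myc list, Csnk1d was above Tef, Nr1d2 and Usp2 and below Gm129. Gsk3b and Timeless were also above the 90.8 of Usp2 there. At Gsk3b the 2 peaks did not overlap. At Timeless the Max peak of 96.13 overlapped no Bio-Myc peak, and a weaker one of 90.55 did. The Bio-Myc peak of Timeless also lay over a TSS of another gene. At these genes both lists had a promoter peak but no canonical E-Box lay under it.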

How the data were processed

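The authors sequenced the 4 ChIP-Seq libraries on an Illumina HiScanSQ. Bowtie 0.12.7 placed the reads on mm9, where a read was kept if it had a single location and at most 2 mismatches, and duplicates counted once. Against the mock or IgG ChIP, MACS 1.4.1 then found the peaks of each library, with 1e-08 as the p-value limit. The submitters' processing notes also name CASAVA 1.8. The deposited score of each peak is -log10 of the MACS p-value, multiplied by 10. Read depth was not analysed here, and unique mapping leaves repeats out. The 15 highest Max peaks share the score 3100.

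TSSs were those of GENCODE M1, and sequence came from the matching assembly. Coordinates are 1-based. Overlap was 1 bp or more. Python 3.11.15 was used with pysam 0.24.0 for sequence, numpy 2.4.6 and scipy 1.17.1 for counts and matplotlib 3.10.9 for plots, and all 7 counting steps tested on simulated data returned the known answer. Intervals are 95% Wilson intervals.

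The 10 genes and the wider list were chosen with earlier results of these data known. All 10 genes are described, and of the wider list those with a Bio-Myc promoter peak are named, except for 1 that is counted but not reported here. The CpG, flank, E-Box pair and score-overlap descriptions were chosen after seeing the data. With 1 library per ChIP no test was run. Alternatives were window, TSS set, gene set, p-value limit, equal numbers of peaks, and chromosome.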

Additional observations from a re-analysis of the deposited data

How the results depend on the processing

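Of 81 alternative counts and shares, 29 moved, which means a count changed by over 1.5 times or a share left the 95% interval of the value above. The Max genes were the same 8 under each window, TSS set and p-value limit, and 6, without Clock and Per3, when the Max list was reduced to as many peaks as the Bio-Myc list, which left 3 genes with neither peak. The 4 genes with Bio-Myc became 3 when a peak had to cover a TSS, which left out Bhlhe40, 3 at a p-value limit of 1e-11 and 2, Nr1d1 and Dbp, at 1e-15. Under each of these 3 settings 2 genes had neither peak. No share of all protein-coding genes with neither peak is given under any setting, so the counts of genes with neither are a description only. At 1e-15, 1 gene kept CACGTG under a Bio-Myc promoter peak, and the share of clock promoter E-Boxes under Bio-Myc went from 45.5 to 9.1%. At this limit the share of all protein-coding genes with Bio-Myc also fell, from 14.6 to 6.8%. No share over all protein-coding genes is given there for E-Boxes, so the fall is not a result about clock E-Boxes. Within 5 kb, where no share over all protein-coding genes is given for E-Boxes, the share under Max went from 72.7 to 36.4%. Whether the nearest peak lay within 1 kb stayed the same in 85 of 90 alternatives, while some of the longer distances themselves changed.

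The share of protein-coding genes with Bio-Myc, 14.6%, was 13% for peaks covering a TSS, 14.1% within 500 bp, 16.6% within 5 kb, 15.4% from 3 kb upstream to 2 kb downstream, 10.2% at 1e-11, 6.8% at 1e-15, 13.6% for the outermost TSS, 12.2% for the nearest gene only and 10% over all annotated genes. The share with Max, 34.8%, was 30%, 33.7%, 38.6%, 36.3%, 28.8%, 22.6%, 32.2%, 30.3% and 23.7% under the same settings, 34.1% for TSSs of protein-coding transcripts, 15.5% with as many Max as Bio-Myc peaks and 33.5% without chromosome 8, where Max peaks are dense and no clock gene of the 10 lies. The number of peaks at a fixed p-value depends on depth, which is unknown, so a missing peak is not evidence of no binding, and the absence of replicates leaves every difference untested.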
